A study of Mus musculus with 8 samples.

Results

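The circadian clock genes described here are 10 listed genes of the core clock and its output, of which 9 had a probe set that the platform annotation pairs with 1 symbol, among 22180 genes named in that way. They are Arntl, Clock, Npas2, Per1, Per3, Cry1, Nr1d1, Nr1d2 and Dbp, each represented by its only such probe set, and they were chosen by name. Per2, the remaining gene, has 1 probe set that carries a second symbol as well, so no value is given for it. Expression was measured on Affymetrix Mouse Gene 2.0 ST arrays in 8 male C57BL/6 mice, 1 array each, from the left epididymal fat pad, a white fat depot that adjoins the epididymis. In the GC+ group, 4 mice received the synthetic glucocorticoid prednisolone daily for 4 weeks from 6 weeks of age, mixed into sweet potato puree at a dose that the labels write as 40 mg per kg per square metre. In the GC- group, 4 mice received the puree alone. Both groups had been weaned at 3 weeks of age onto an n-6 rich high-fat diet (45% of its energy was fat), and the fat pad was collected at 10 weeks. The labels do not give the hour of collection or the time since the last dose. In bulk fat, fewer cells of a type and less RNA per cell cannot be told apart. The values are log2 expression levels from robust multiarray averaging (RMA), and each mouse carries the replicate number that its label gives.

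In the mammalian clock, ARNTL (also called BMAL1) pairs with CLOCK, or with its paralogue NPAS2, and binds E-box motifs to switch on the Per and Cry genes, the nuclear receptor genes Nr1d1 and Nr1d2, and output genes such as Dbp. PER and CRY proteins then repress ARNTL and CLOCK. The products of Nr1d1 and Nr1d2, REV-ERB alpha and REV-ERB beta, repress Arntl, Npas2 and Cry1 through elements they share with the activating ROR receptors. White fat has such a clock, and glucocorticoids act on it partly through Per1, a direct target of the glucocorticoid receptor. The activator arm below is Arntl, Clock and Npas2. The repressor arm is Per1, Per3, Cry1, Nr1d1 and Nr1d2, and Dbp enters neither.

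Adipocyte transcripts were high on every array. Adipoq, which encodes the adipocyte hormone adiponectin, read 12.22, 12.04, 12.07 and 12.29 in GC+ mice 1 to 4, against 11.74, 12.16, 12.08 and 12.12 in GC- mice 1 to 4. The 11 tested adipocyte markers had scores, made as the next one, from -0.09 to 0.21 in GC+ and from -0.29 to 0.13 in GC- mice. Of these markers, 10 averaged higher in GC+ mice, where 54.6% of all tested genes did. The epididymis score, the mean over 13 tested of 16 listed marker genes of each log2 value minus its mean over 8 arrays, was 0.61, 3.49, -2.62 and -2.47 in the GC+ mice, against 3.22, -2.73, -1.32 and 1.81 in the GC- mice. Both groups held mice at each end of that range. The summed linear signal of those markers ran from 712 to 79732 in GC+ and from 646 to 70968 in GC- mice. Gpx5, an epididymal glutathione peroxidase, and Adam7, an epididymal membrane protein, were brightest in the same 3 mice, GC+ mouse 2 and GC- mice 1 and 4, at 13.81, 13.78 and 13.60 for Gpx5 and 13.21, 13.57 and 13.21 for Adam7. Results below are also given with that score as a covariate, or without those 3 mice, which leaves 3 GC+ and 2 GC- mice.

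GC+ and GC- mice were compared with limma over 14787 tested genes, with p-values adjusted by Benjamini-Hochberg over all of them. No clock gene passed an adjusted p of 0.05, and neither did any other tested gene (0 of 14787, 0%). At an unadjusted p under 0.05, 2 of the 9 clock genes differed, Arntl and Cry1, both higher in GC+ mice, where 3.37% of all tested genes were higher by that rule and 5.69% differed in either direction. Arntl was the 1 clock gene whose groups did not overlap, a pattern that 1.81% of all tested genes showed in that direction and 3.20% in either. Without the 3 mice of high epididymis score 0 of the 9 clock genes had an unadjusted p under 0.05, against 3.36% of all tested genes. Of the 9 genes, 5 averaged higher and 4 lower in GC+ mice, with a median difference of 0.04 on the log2 scale, against a median of 0.02 and a share of 54.6% higher over all tested genes. Differences below are GC+ minus GC- in log2 units, each followed by its limma standard error (n = 4 mice per group).

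**Figure D1:**
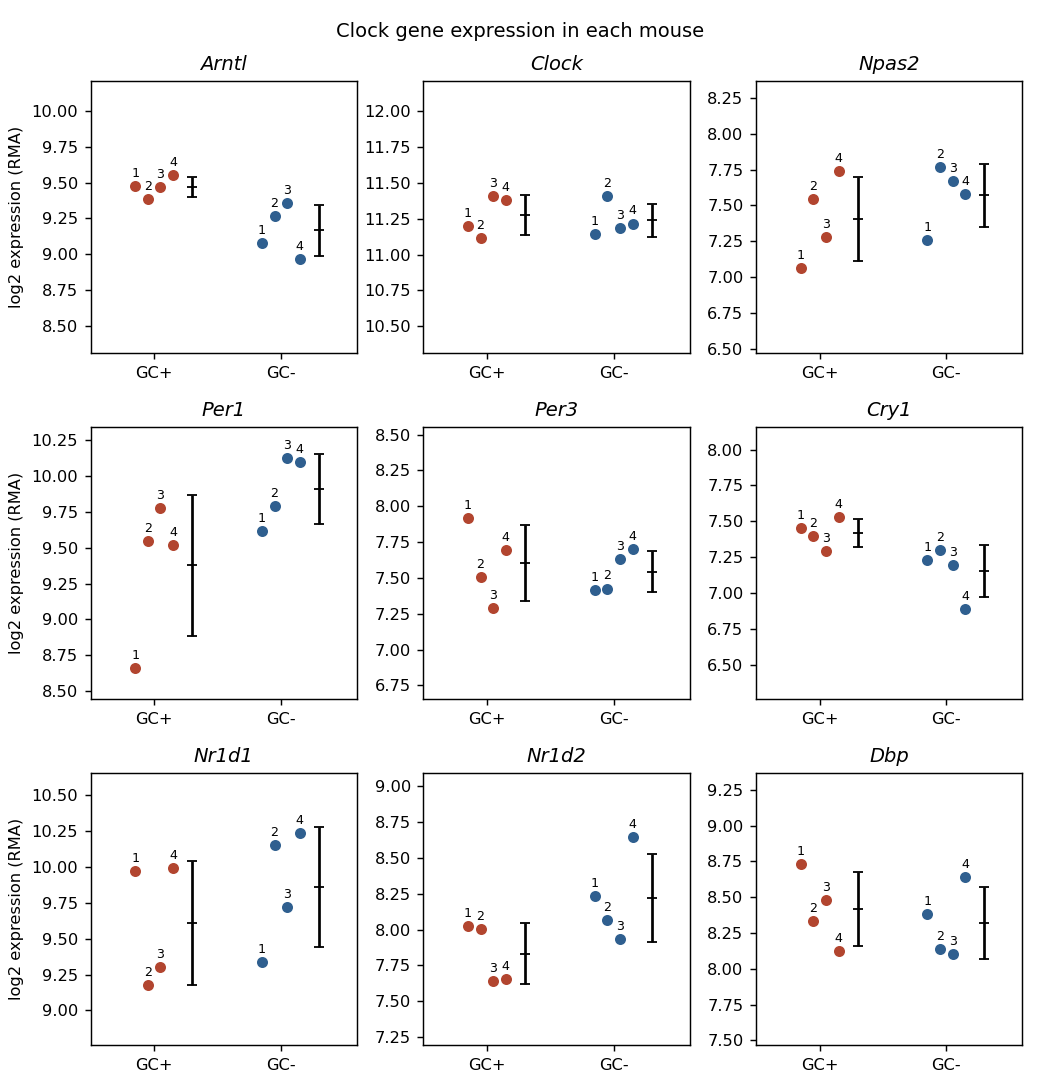
The log2 expression of 9 clock genes in each mouse, with GC+ mice left of GC- mice, replicate numbers above the points, and bars for the group mean and SD (n = 4 each). Every panel spans the same number of log2 units. The 4 GC+ mice lie above the 4 GC- mice in the Arntl panel, and GC+ mouse 1 lies far below all others in the Per1 panel, at 8.66.

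In the activator arm, Arntl averaged higher in GC+ mice, and its partners differed by less than their error. Arntl, the subunit that CLOCK and NPAS2 share, read 9.47, 9.38, 9.47 and 9.55 in GC+ mice, against 9.08, 9.26, 9.36 and 8.96 in GC- mice. Every GC+ mouse lay above every GC- mouse, by a gap that was small beside the spread of the GC- mice. The means were 9.47 ± 0.07 in GC+ and 9.17 ± 0.18 in GC- mice (SD, n = 4 each), a difference of 0.30 ± 0.10 with a 95% interval from 0.07 to 0.53, or 1.23-fold (limma unadjusted p = 0.0162, adjusted p = 0.768). With the epididymis score as a covariate the difference was 0.29, and without the 3 mice of high score it was 0.18.

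Clock, which encodes the main partner of ARNTL, read 11.20, 11.12, 11.41 and 11.38 in GC+ mice, against 11.14, 11.41, 11.19 and 11.22 in GC- mice. The groups overlapped almost completely, and the difference of 0.04 ± 0.10 had a 95% interval from -0.18 to 0.26 (limma adjusted p = 0.927). Npas2, the paralogue of Clock, read 7.07, 7.54, 7.28 and 7.74 in GC+ mice, against 7.26, 7.77, 7.67 and 7.58 in GC- mice. GC+ mouse 1 was the lowest of all 8 and the groups overlapped (-0.16 ± 0.17, 95% interval -0.55 to 0.22, limma adjusted p = 0.824). The Npas2 difference was -0.05 without GC+ mouse 1, -0.27 without GC+ mouse 4 or GC- mouse 1, and -0.36 without the 3 mice of high epididymis score.

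In the repressor arm 2 of 5 genes averaged higher and 3 lower in GC+ mice. Per1, a repressor of ARNTL and CLOCK and a glucocorticoid receptor target, had the largest difference of the 9 genes and averaged lower in GC+ mice. It read 8.66, 9.55, 9.78 and 9.52 in GC+ mice, against 9.62, 9.79, 10.13 and 10.10 in GC- mice. GC+ mouse 1 stood apart at the low end, and GC+ mouse 3 lay above GC- mouse 1. The difference was -0.53 ± 0.24, with a 95% interval from -1.08 to 0.02 (limma unadjusted p = 0.0569, adjusted p = 0.768), and it was -0.29 without GC+ mouse 1. Per3, a paralogue whose loss has little effect on the core rhythm in mice, read 7.92, 7.50, 7.29 and 7.70 in GC+ mice, against 7.42, 7.43, 7.63 and 7.70 in GC- mice. Here GC+ mouse 1 was the highest of all 8, and the difference of 0.06 ± 0.14 (95% interval -0.27 to 0.38, limma adjusted p = 0.922) was -0.05 without it.

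Cry1, a repressor whose loss shortens the rhythm in mice, averaged higher in GC+ mice, opposite to Per1. It read 7.45, 7.40, 7.29 and 7.53 in GC+ mice, against 7.23, 7.30, 7.20 and 6.89 in GC- mice. The groups overlapped only where GC- mouse 2 lay just above GC+ mouse 3. The difference was 0.27 ± 0.11, with a 95% interval from 0.02 to 0.51, or 1.20-fold (limma unadjusted p = 0.0358, adjusted p = 0.768). Its unadjusted p was 0.05 or more without GC+ mouse 1, 2 or 4 or GC- mouse 3 or 4, while that of Arntl stayed under 0.05 without any 1 mouse. The Cry1 difference was 0.18 without GC- mouse 4, the lowest of the 8, and 0.18 without the 3 mice of high epididymis score.

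Nr1d2, which encodes REV-ERB beta, read 8.03, 8.00, 7.64 and 7.66 in GC+ mice, against 8.23, 8.06, 7.94 and 8.65 in GC- mice. GC+ mice 3 and 4 lay below all GC- mice, while GC+ mice 1 and 2 lay between GC- mice 3 and 2. The difference was -0.39 ± 0.17, with a 95% interval from -0.78 to 0.00039 (limma unadjusted p = 0.0502, adjusted p = 0.768). It was -0.25 without GC- mouse 4, -0.36 with the epididymis score as a covariate and -0.23 without the 3 mice of high score. Nr1d1, which encodes REV-ERB alpha, read 9.97, 9.18, 9.30 and 9.99 in GC+ mice, against 9.34, 10.15, 9.72 and 10.24 in GC- mice. Both groups held low and high mice, and the difference of -0.25 ± 0.26 (95% interval -0.85 to 0.35, limma adjusted p = 0.827) was smaller than its error. It was -0.11 without GC+ mouse 2 and -0.43 without GC- mouse 1.

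Dbp, a transcription factor that carries the E-box rhythm to output genes, read 8.73, 8.33, 8.48 and 8.12 in GC+ mice, against 8.39, 8.14, 8.11 and 8.64 in GC- mice. The ranges were nearly the same (0.10 ± 0.16, 95% interval -0.27 to 0.47, limma adjusted p = 0.888), and the difference was -0.01 without GC+ mouse 1 and 0.32 without the 3 mice of high epididymis score.

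**Figure D2:**
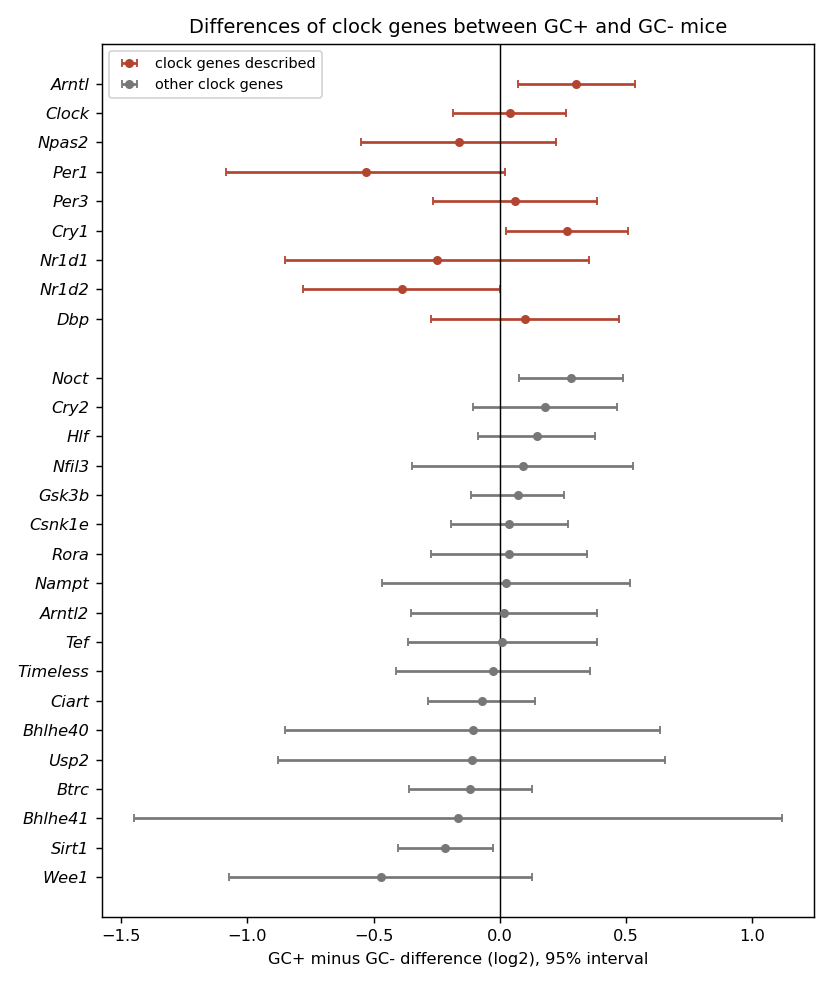
GC+ minus GC- differences on the log2 scale with 95% intervals from limma (n = 4 mice per group) for the 9 clock genes, in red, and 18 other tested clock genes, in grey. Among the 9, the intervals of Arntl and Cry1 lie above 0 and that of Nr1d2 ends at 0.00039.

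The arms were set against each other in each mouse as the mean of the activator genes minus the mean of the repressor genes, each gene first centred on its mean over 8 arrays. The activator mean was -0.11, -0.01, 0.03 and 0.20 in GC+ mice, against -0.20, 0.13, 0.05 and -0.10 in GC- mice. The repressor mean was -0.05, -0.13, -0.19 and 0.03 in GC+ mice, against -0.09, 0.09, 0.07 and 0.26 in GC- mice. Both arms overlapped between the groups. Activator minus repressor was -0.06, 0.12, 0.22 and 0.18 in GC+ mice, against -0.11, 0.03, -0.02 and -0.36 in GC- mice, so that 3 GC+ mice lay above all GC- mice and GC+ mouse 1 among them. The group means were 0.11 ± 0.12 in GC+ and -0.11 ± 0.18 in GC- mice (SD, n = 4 each), a difference of 0.23 that is given as a description with no test. That difference came to 0.06 from the activator arm and -0.17 from the repressor arm. It was 0.13 with the repressor arm reduced to the Per and Cry genes, 0.15 without GC- mouse 4 and 0.10 without the 3 mice of high epididymis score.

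**Figure D3:**
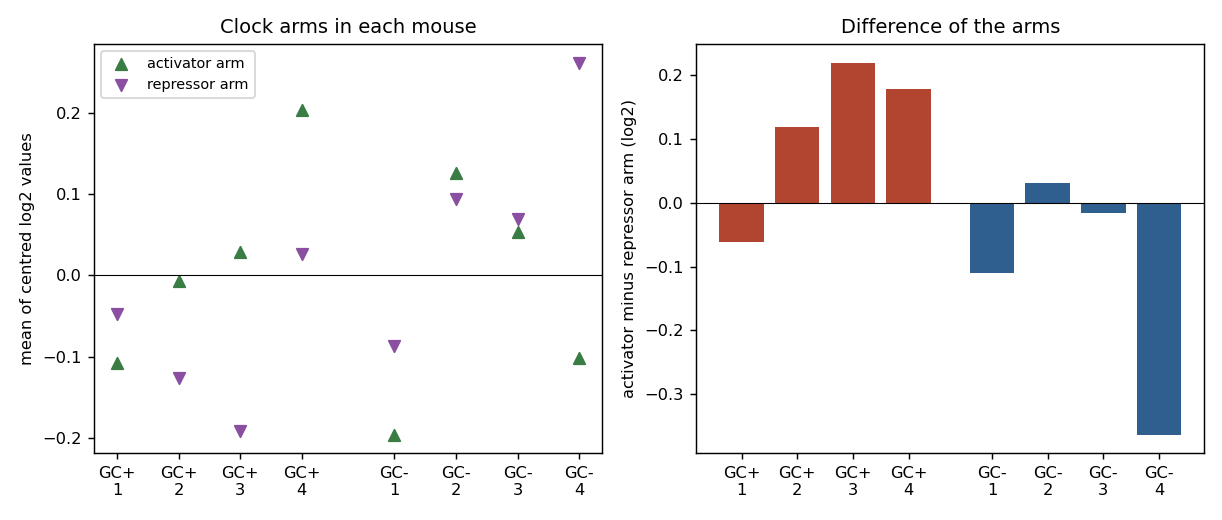
Left, the mean centred log2 value of the activator arm (triangles up) and the repressor arm (triangles down) in each mouse. Right, activator minus repressor arm in log2 units, with GC+ mice in red and GC- mice in blue. GC- mouse 4 is lowest at -0.36, and GC+ mouse 1 at -0.06 lies within the GC- range.

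The clock genes differed in how much they varied within a group. The pooled within-group SD was 0.43 for Nr1d1 and 0.39 for Per1, above 90.2% and 88.2% of all tested genes, and 0.14 for Arntl and 0.13 for Clock, above 32.6% and 29.1%. The median of the 9 was 0.25, against 0.17 over all tested genes.

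Across mice, Arntl was opposed to Nr1d2. Of the 36 pairs of the 9 genes, 1 passed an adjusted p of 0.05, Arntl with Nr1d2 (Pearson r = -0.914 over 8 mice, exact permutation p = 0.00114, adjusted over the pairs 0.0411). Its Spearman rho was -0.786 (exact permutation p = 0.0279, adjusted 0.335), and 0 pairs passed by rank. The correlation was -0.862 with the group means removed and -0.881 with the epididymis score removed. Without GC- mice 1 and 4, the mice farthest from the Arntl median, it was -0.720 over 6 mice (exact permutation p = 0.14). With 1 mouse left out r ran from -0.960 to -0.824, and the pair kept an adjusted p under 0.05 without GC+ mouse 1 or GC- mouse 3 and lost it without any 1 of the other 6 mice. Arntl with Cry1 did not pass, with r = 0.860 (exact permutation p = 0.00352, adjusted 0.0634) and rho = 0.833 (exact permutation p = 0.0154, adjusted 0.277), and r = 0.684 after removing group means and 0.683 (exact permutation p = 0.143) without GC- mice 1 and 4. As a background, 0.338% of the 14778 other tested genes had an r with Arntl at or below that of Nr1d2, and 1.73% had one at or above that of Cry1. Cry1 and Nr1d2 had r = -0.785 (exact permutation p = 0.0262, adjusted 0.279) and rho = -0.429 (exact permutation p = 0.299, adjusted 0.904), with r = -0.0254 without GC+ mouse 4 and GC- mouse 4. Per1 and Cry1, both repressors, were opposed by rank (rho = -0.857, exact permutation p = 0.0107, adjusted 0.277) and less so by value (r = -0.673, exact permutation p = 0.093, adjusted 0.558). Their r was -0.414 with the group means removed. It was -0.908 over 6 mice without GC+ mouse 1 and GC- mouse 3 (exact permutation p = 0.0194). Npas2 and Dbp were opposed (r = -0.770, exact permutation p = 0.031, adjusted 0.279; rho = -0.738, exact permutation p = 0.0458, adjusted 0.413; r = -0.671 without the 2 farthest mice).

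**Figure D4:**
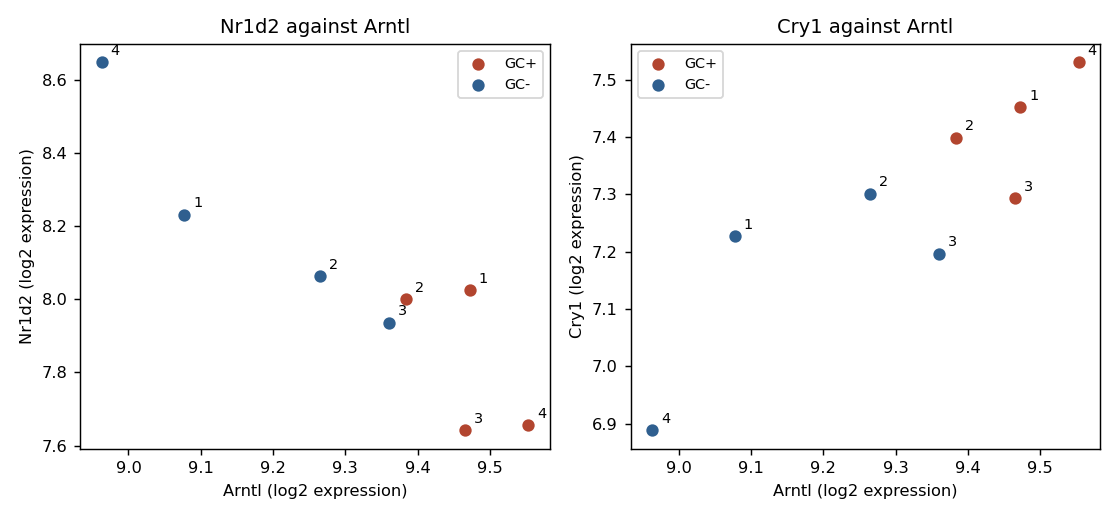
Nr1d2 (left) and Cry1 (right) against Arntl, all as log2 expression, with 1 point per mouse, GC+ in red and GC- in blue, and replicate numbers beside the points. GC- mouse 4 has the lowest Arntl and Cry1, at 8.96 and 6.89, and the highest Nr1d2, at 8.65.

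The promoters of Arntl, Nr1d2 and Cry1, the genes of the closest pairs, and of Per1, the gene with the largest difference, are shown from RefSeq (GRCm38.p6), each with 250 bases before and 50 after the annotated start, 5′ to 3′ on the strand of the gene. RefSeq gave 13 such promoters for the 9 measured genes, and for Arntl and Per1 the 1 of 2 starts with a match is shown, the other holding 0 matches to the motifs below. Capitals mark matches, on either strand, to the E-box CACGTG, its variant CACGTT, the core AGGTCA of the element bound by ROR and REV-ERB receptors, the D-box core TTANGTAA or the glucocorticoid receptor core AGAACA.
Arntl (chr7:113207261-113207560, plus strand): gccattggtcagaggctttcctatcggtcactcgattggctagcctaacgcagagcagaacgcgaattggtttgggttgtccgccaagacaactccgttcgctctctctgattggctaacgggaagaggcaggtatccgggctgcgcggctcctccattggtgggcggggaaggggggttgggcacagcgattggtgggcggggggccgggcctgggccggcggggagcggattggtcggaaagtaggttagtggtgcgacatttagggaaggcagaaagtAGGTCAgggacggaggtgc
Nr1d2 (chr14:18239057-18239356, minus strand): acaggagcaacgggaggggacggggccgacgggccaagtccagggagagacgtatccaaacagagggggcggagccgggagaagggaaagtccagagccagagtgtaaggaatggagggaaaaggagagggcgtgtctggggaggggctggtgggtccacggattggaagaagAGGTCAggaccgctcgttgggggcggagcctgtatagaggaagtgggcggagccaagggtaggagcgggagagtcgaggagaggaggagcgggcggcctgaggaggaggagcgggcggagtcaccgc
Cry1 (chr10:85185005-85185304, minus strand): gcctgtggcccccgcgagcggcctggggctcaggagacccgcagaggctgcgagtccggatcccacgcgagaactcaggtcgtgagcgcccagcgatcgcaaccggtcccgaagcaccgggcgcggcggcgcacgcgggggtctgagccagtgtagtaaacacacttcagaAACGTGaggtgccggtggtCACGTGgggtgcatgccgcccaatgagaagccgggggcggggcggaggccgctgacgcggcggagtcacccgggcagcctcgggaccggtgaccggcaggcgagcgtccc
Per1 (chr11:69098699-69098998, plus strand): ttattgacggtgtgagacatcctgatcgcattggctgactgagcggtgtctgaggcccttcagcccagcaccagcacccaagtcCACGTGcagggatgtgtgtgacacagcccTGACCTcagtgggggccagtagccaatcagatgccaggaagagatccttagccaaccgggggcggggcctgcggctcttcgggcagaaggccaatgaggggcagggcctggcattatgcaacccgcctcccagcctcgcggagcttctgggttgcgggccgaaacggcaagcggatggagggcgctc
Positions are those of the leftmost base of a match. The Arntl promoter held AGGTCA at base 32 of the transcript, on the strand of the gene, and the Nr1d2 promoter held it 77 bases before the start. The Cry1 promoter held CACGTG 60 bases and the variant 79 bases before the start. The Per1 promoter held CACGTG 166 bases and AGGTCA, on the opposite strand, 137 bases before. Of the 13 promoters, 2 held CACGTG (7.15% of all 32851 promoters did), 2 held CACGTT (4.68%), 4 held AGGTCA (16.3%), 1 held TTANGTAA (2.32%) and 0 held AGAACA (19.0%). The 1 with the D-box core was that of Per3, with 2 matches. No motif in the list overlapped another in the promoters shown. These matches describe letters in the window, and the sites that act in fat may lie outside it.

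A list of 23 further clock and clock-controlled genes gave 20 with a one-symbol probe set and 18 above the filter on dim genes. Of these 18, 10 averaged higher and 8 lower in GC+ mice, with a median difference of 0.01, and 0 passed the adjusted threshold in limma. At an unadjusted p under 0.05 there was 1 higher, Noct, and 1 lower, Sirt1, against 3.37% higher and 2.33% lower of all tested genes. Both also had groups that did not overlap, which 1.39% of tested genes had in the lower direction.

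Noct, a rhythmic phosphatase related to RNA deadenylases and also called nocturnin, read 7.85, 7.68, 7.67 and 7.81 in GC+ mice, against 7.47, 7.66, 7.36 and 7.41 in GC- mice. The lowest GC+ mouse was just above the highest GC- mouse (0.28 ± 0.09, limma adjusted p = 0.768), and the difference was 0.27 without the 3 mice of high epididymis score. Sirt1, an NAD-dependent deacetylase that acts on clock proteins, read 8.09, 7.93, 8.03 and 7.98 in GC+ mice, against 8.18, 8.23, 8.11 and 8.38 in GC- mice (-0.22 ± 0.08, limma adjusted p = 0.768), and differed by -0.14 without those 3 mice. Wee1, a clock-controlled kinase of the cell cycle, differed by -0.47 ± 0.26, with GC+ mouse 3 at 8.50 among the GC- mice and the other GC+ mice between 7.28 and 7.80. The Wee1 difference ran from -0.72 without GC+ mouse 3 to -0.32 without GC+ mouse 4. Cry2, the paralogue of Cry1, differed by 0.18 ± 0.12, which was 0.08 without GC- mouse 1. Hlf, a relative of Dbp, differed by 0.15 ± 0.10, which was 0.06 without GC+ mouse 2, and Btrc, a ligase subunit that marks PER proteins for breakdown, by -0.12 ± 0.11, which turned to 0.01 without the 3 mice. Rorb, a ROR receptor, was dimmer than the filter, at 5.72 to 6.10 in GC+ and 5.45 to 5.69 in GC- mice (0.26 ± 0.11, limma adjusted p = 0.791 with no filter). Its groups were apart by a narrow gap at low signal, and the share of such genes was not counted without the filter.

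Some clock genes had levels that followed the epididymis score across mice, but none passed a test adjusted over all tested genes. This relation was examined after the values were seen. By Pearson's r, 8 of the 27 tested clock genes (29.6%) and 1 of the 9 described above (11.1%) had an exact permutation p under 0.05, as did 18.1% of all 14787 tested genes. By Spearman's rho the shares were 29.6%, 11.1% and 13%. After adjustment over all tested genes, 0 of 14787 passed by Pearson's r or by rank. With 8 mice the exact permutation p has a floor too high for a lone gene to pass that adjustment. No conclusion is therefore drawn from that 0.

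Bhlhe41, a repressor of E-box transcription, read 6.78, 8.36, 6.84 and 6.78 in GC+ mice, against 8.57, 6.39, 6.57 and 7.89 in GC- mice, so it was high in the 3 mice of high score and low in the others. Its r with the score was 0.913 (exact permutation p = 0.00238, adjusted 0.133) and its rho 0.762 (exact permutation p = 0.0368, adjusted 0.339). Its paralogue Bhlhe40 had r = 0.909 (exact permutation p = 0.00206, adjusted 0.129) and rho = 0.952 (exact permutation p = 0.00114, adjusted 0.238). Clock, the 1 gene of the 9, went the other way, with r = -0.892 (exact permutation p = 0.00833, adjusted 0.170) and rho = -0.898 (exact permutation p = 0.00516, adjusted 0.240). Csnk1e, a kinase of PER proteins, had r = -0.918 (exact permutation p = 0.000446, adjusted 0.111) and rho = -0.905 (exact permutation p = 0.00456, adjusted 0.238).

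Without GC+ mouse 2 and GC- mouse 1, the mice farthest from the median score, r was -0.886 for Csnk1e, -0.807 for Clock, 0.764 for Bhlhe41 and 0.753 for Bhlhe40, with exact permutation p-values over 6 mice of 0.0139, 0.0944, 0.0639 and 0.0958. Arntl (r = -0.524), Cry1 (-0.265) and Per1 (-0.151) had exact permutation p-values of 0.189, 0.559 and 0.772 over 8 mice. Nr1d2 had r = 0.615 (exact permutation p = 0.104) over 8 mice and r = 0.813 (exact permutation p = 0.0319) without those 2 mice. The part of the epididymal signal in the Nr1d2 difference was examined only through the covariate and the mice left out above.

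**Figure D5:**
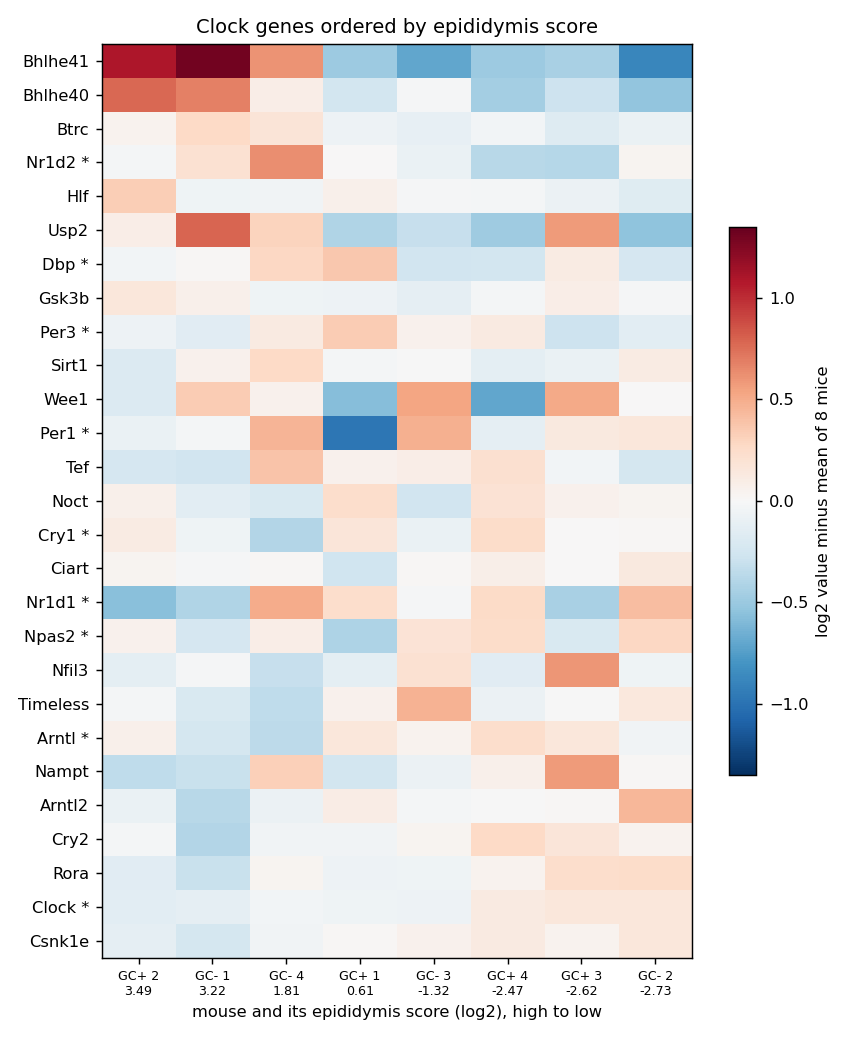
Log2 values of 27 tested clock genes minus their mean over 8 mice, with mice ordered by epididymis score, printed under each mouse, and genes ordered by their correlation with it. Asterisks mark the 9 clock genes described gene by gene. Bhlhe41 and Bhlhe40 at the top are high in GC+ mouse 2 and GC- mouse 1, and Csnk1e and Clock at the bottom are low there.

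The genes whose pattern over the 8 mice was most like that of Arntl were Blvra (biliverdin reductase, r = 0.988), Msantd3 (0.975), Palld (the actin-associated protein palladin, 0.974), Actn1 (alpha-actinin, 0.972), Tmem132d (0.971) and Ctsd (the lysosomal protease cathepsin D, 0.970). At the opposite end were Glt8d1 (a glycosyltransferase, r = -0.996), Ahsg (the plasma protein fetuin-A, -0.982), Ppa2 (a mitochondrial pyrophosphatase, -0.981), Ttr (the plasma carrier transthyretin, -0.976), Apoa2 (an apolipoprotein, -0.972) and Serpina1c (a plasma protease inhibitor, -0.971). These are the ends of a ranking of 13402 named genes over 8 mice, and were not tested. Ahsg read 5.70, 6.58, 6.43 and 5.77 in GC+ mice, against 8.97, 7.10, 6.71 and 9.84 in GC- mice. Serpina1c, 1 of several near-identical copies and so uncertain, read 4.37, 5.84, 5.89 and 4.61 in GC+ mice, against 9.81, 7.14, 5.66 and 10.26 in GC- mice. GC- mice 1 and 4, with the lowest Arntl, were thus the highest for these transcripts, which are made mainly in liver. Both are also among the 3 mice of high epididymis score, at 3.22 and 1.81. The part of the liver transcripts in the Arntl difference was not tested.

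For Dbp the most similar genes were Wnt8a (r = 0.935), Srp14 (0.934), Syt6 (0.916), Zfp768 (0.906), Max (0.893) and Rbfox3 (0.893), and the most opposed Krtap19-4 (-0.943), Ccdc78 (-0.937), Zfp469 (-0.928), Ppp1r13l (-0.906), Calm5 (-0.870) and Kifc5b (-0.864). They are the ends of a ranking of 13402 named genes over 8 mice, where chance alone can give such values, and were not tested. The 9 clock genes described here were left out of that ranking, and none of the 18 other tested clock genes was among those named. The r of Dbp with its relatives Tef and Hlf was 0.265 and 0.150, and over the 18 other clock genes it ran from -0.749 for Ciart, an ARNTL repressor, to 0.384 for Usp2, a rhythmic deubiquitinase.

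Per1 is also a glucocorticoid receptor target, and other targets were low in the same mouse. Fkbp5, a chaperone of the receptor, read 7.69 in GC+ mouse 1 and at least 8.55 in the other 7 mice. Tsc22d3, which encodes GILZ, read 8.53 there, also the lowest of the 8 mice. None of the targets passed between the groups. Fkbp5 differed by -0.40 ± 0.32, Tsc22d3 by -0.20 ± 0.18 and Klf9, a glucocorticoid-induced factor, by -0.16 ± 0.20 (limma adjusted p = 0.791, 0.811 and 0.853), and all 3 averaged lower in GC+ mice under each of 18 alternatives. Some of these alternatives, such as another filter or variance model, cannot alter a difference. Klf9 read 9.53 in GC+ mouse 1 and 9.46 in GC- mouse 1, the lowest values of the 8. The receptor gene Nr3c1 read 9.94 in GC+ mouse 1, the highest of the 8. Immediate early genes, a class that Per1 can behave as, averaged higher in GC+ mice for 15 of 16 tested members. The share higher was 54.6% over all tested genes. Scores of that list ran from 0.08 to 0.19 in GC+ and from -0.27 to -0.08 in GC- mice. Fos, 1 of these immediate early genes, read 7.90, 7.28, 7.84 and 7.49 in GC+ mice, against 6.18, 6.92, 7.05 and 6.47 in GC- mice. Macrophage markers averaged higher for 12 of 12 members, against the same 54.6%. Their scores ran from 0.13 to 0.37 in GC+ mice, and were -0.43, -0.30, 0.32 and -0.60 in GC- mice 1 to 4. Adgre1, a surface marker of these cells, read 8.29 and 8.34 in GC- mice 1 and 4, the lowest of the 8. The part of these lists in the clock gene differences was not tested.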

How the data were processed

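Total RNA of 8 fat samples was hybridised to 1 array each. The deposited values are log2 RMA signals that the authors made with Affymetrix Expression Console, per the labels' descriptions; the submitters' processing notes also name Partek 6.6, with no role. RMA corrects background, equalises array distributions and summarises probes, so an overall shift of 1 array is lost and differences at low signal are compressed. The genome build of the annotation is not given in the sources used here.

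Of 41345 probe sets, 23521 had 1 symbol in the platform annotation, 1814 several and 16010 none. Each of 22180 genes was represented by its brightest probe set on average, and the dimmest 33.3% were left out below a log2 value of 5.82. The remaining 14787 genes were compared between GC+ and GC- by lmFit and eBayes (limma 3.58.1, R 4.3.3), with no covariate and no block. The fit was tested on simulated data with independent normal noise for each gene. Those data lack signal shared between genes, such as that of the epididymis markers. Array medians lay between 6.09 and 6.13, arrays correlated at 0.879 to 0.986, and no 2 arrays were identical. The number of arrays limits the precision, and the labels call the replicates biological. Correlations over mice were tested by two-sided exact permutation of all pairings, with Benjamini-Hochberg adjustment over the 36 pairs of clock genes or, for the epididymis score, over all tested genes. Motifs were searched in RefSeq promoters. Figures used matplotlib 3.10.9.

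The clock genes, the lists and the tests were chosen with earlier results of these data known. Named were all listed clock genes, other clock genes with unadjusted p under 0.05 or groups apart, filled up to the 6 lowest p, the 6 genes at each end of the correlation with Arntl and with Dbp, and fixed marker and glucocorticoid response genes. Predicted genes, olfactory receptors and small RNAs were not named. Alternatives changed the filter, normalization, probe set choice, variance model, array weights, replicate block, epididymis score as covariate or arrays left out, and left out each mouse in turn.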

Additional observations from a re-analysis of the deposited data

Results flagged for a closer look

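Among 30 named genes and scores, examined in 60 groups of 4 mice, 2 groups held a mouse far from the other 3, where chance gives about 1 in 20. Bhlhe41 read 8.362 in GC+ mouse 2, against 6.782, 6.839 and 6.783 in GC+ mice 1, 3 and 4. GC+ mouse 2 also had the highest epididymis score, 3.49. Nr3c1, the glucocorticoid receptor, read 9.425 in GC- mouse 1, against 9.887, 9.817 and 9.812 in GC- mice 2, 3 and 4.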

How the results depend on the processing

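Over 18 alternatives, 0 genes passed the adjusted threshold in each, and Arntl, Cry1, Nr1d2, Per1, Npas2 and Nr1d1 kept their direction in all of them. Changes of the filter, probe set averaging, variance model or replicate block cannot alter the differences of these genes, so no direction could turn there. The Arntl difference ran from 0.18 to 0.38 and that of Per1 from -0.75 to -0.29. Activator minus repressor arm stayed positive in 20 alternatives, from 0.10 to 0.29 in log2 units, and was 0.65 in SD units. The filter, median centring of arrays, probe set averaging, variance model and replicate block could not alter that arm difference. Clock genes with an unadjusted limma p under 0.05 numbered 4 with array quality weights (where 13.4% of all tested genes had one). They numbered 3 with the epididymis score as a covariate (8.39% of all tested genes) and 0 without the 3 mice of high score (3.36%). With the replicate number as a block there was 1, and without 1 mouse there were from 1 to 3. The share over all tested genes was not counted for the block or for leaving out 1 mouse. In that block fit the 1 gene was Per1, at -0.53 ± 0.14, and Arntl, at 0.30 ± 0.12, and Cry1 lost theirs (limma adjusted p = 0.937 for Per1 and Arntl). Same-numbered mice deviated from their group means with correlations of -0.19, -0.58, 0.13 and -0.28. Of the 4 GC+ mice, 0 correlated best with the GC- mouse of their number. These correlations run over all tested genes in few mice, so they cannot exclude that the numbers pair the mice. The block lowered the standard error of Per1 from 0.24 to 0.14 and that of Npas2 from 0.17 to 0.12. It raised those of the other clock genes described, as for Arntl from 0.10 to 0.12. Pairs past the threshold numbered 2 after repeated quantile normalization, 0 without the 3 mice and 0 with the epididymis score regressed out, an alternative chosen after seeing the data, and from 0 to 2 without 1 mouse. The 3 GC+ and 2 GC- mice left without those 3 allow too few permutations for a lone pair to pass. No conclusion is drawn from that 0. Without the 3 mice the sign turned for Btrc (0.0075), Csnk1e (-0.043), Bhlhe41 (0.32), Nr3c1 (-0.047), Gpx5 (0.42), Adam7 (0.68) and Adgre1 (-0.13). Without 1 mouse it turned for Per3 (-0.045 to 0.16), Dbp (-0.0057 to 0.21), Clock (-0.0046 to 0.095), Nr3c1 (-0.070 to 0.084), Csnk1e (-0.035 to 0.094), Bhlhe40 (-0.38 to 0.10) and Bhlhe41 (-0.56 to 0.24). The causes were not tested.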
